A study of Drosophila melanogaster with 4 samples.

Results

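Chromosome 4 and the 6 heterochromatin scaffolds of the Drosophila melanogaster genome (XHet, 2LHet, 2RHet, 3LHet, 3RHet and YHet) were described here for H3K27me2, in which lysine 27 of histone H3 carries a pair of methyl groups. The members are all deposited enriched regions placed on these 7 scaffolds, chosen by scaffold name alone, with unassigned sequence (U) left out. They number 987 of the 17184 regions in the authors' combined list, 503 of 12968 regions in the list of ChIP replicate 1 and 381 of 11483 regions in the list of ChIP replicate 2. The study profiled wild-type embryos of the strain Oregon-R-modENCODE, aged 14 to 16 h, by chromatin immunoprecipitation and sequencing (ChIP-seq). It comprised 2 ChIP samples made with the H3K27me2 antibody Ab24684 and 2 input samples of the same strain, stage and genotype. Embryos came from population cages, so each sample pools many animals, and no cell type was selected. No region list of the inputs was analysed here. Separate embryo collections are not stated for the ChIP samples, and the spread between them may therefore be technical.

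H3K27me2 is placed by Polycomb repressive complex 2, whose catalytic subunit in flies is Enhancer of zeste. In fly cells it is the most widespread methylation state of this lysine and lies broadly over inactive euchromatin, outside the Polycomb targets that carry trimethylation. Pericentric heterochromatin is instead known for methylation of lysine 9 of histone H3 and binding of HP1a. The small chromosome 4 carries genes within chromatin of that kind, and it has a binding protein of its own, POF. The scaffolds whose names end in Het hold assembled heterochromatic sequence assigned to the chromosome in the name. No mark of heterochromatin was measured in the series, so this identity rests on the scaffold names.

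The lists give the position and the authors' score of each region, but no read counts, so the depth of the libraries is unknown. Sequence outside all regions is therefore termed uncalled, which does not mean unmarked. Scaffold lengths include repeats and unsequenced gaps, and no source used here states how reads with several matches were treated. Low coverage and sequence closed to reads thus cannot be told apart. Positions are those of FlyBase release 5 as deposited, counted from 1. Regions were not assigned to genes, since the gene table at hand is of release 6.

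The first comparison asked how much of these scaffolds lay in called regions. Chromosome 4, with 1351857 bp, had 56.6 kb in regions of replicate 1 and 32.5 kb in regions of replicate 2, which is 4.18% and 2.40% of its length. The major arms X, 2L, 2R, 3L and 3R together had 29.0% in replicate 1 and 23.0% in replicate 2. The covered share of the arms was thus 6.94 times that of chromosome 4 in replicate 1 and 9.59 times in replicate 2. Chromosome 4 minus the arms was -22.7 ± 2.99 percentage points (SD, n = 2), with the same sign in both samples. An exact permutation test that flips the signs of the sample differences (two-sided) gave p = 0.5, the smallest that 2 samples allow, and it gave the same p for every other covered-share difference below. Chromosome 4 also held few regions per length, 19.2 per Mb in replicate 1 and 11.8 per Mb in replicate 2, against 103 and 91.8 per Mb on the arms.

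The heterochromatin scaffolds, 9281781 bp in all, had 1039 kb in regions of replicate 1 and 718 kb in regions of replicate 2, or 11.2% and 7.73% of their length. The difference from the arms was -16.6 ± 1.80 percentage points (SD, n = 2; exact sign-flip permutation p = 0.5). The 6 scaffolds differed among themselves. In replicate 1 the covered share was 16.7% on 3RHet, 11.7% on 3LHet, 9.24% on XHet, 8.42% on 2RHet, 4.57% on 2LHet and 1.84% on YHet. In replicate 2 it was 12.6%, 8.13%, 6.00%, 5.07%, 2.87% and 1.21% for the same scaffolds. The order was identical in the 2 replicates, with chromosome 4 between 2LHet and YHet in each. Every scaffold had more covered sequence in replicate 1 than in replicate 2. Means over both replicates were 14.6% ± 2.92 on 3RHet, 9.93% ± 2.54 on 3LHet, 7.62% ± 2.29 on XHet, 6.74% ± 2.37 on 2RHet, 3.72% ± 1.20 on 2LHet, 3.29% ± 1.26 on chromosome 4 and 1.52% ± 0.442 on YHet (SD, n = 2 each). The ranges of 1 SD overlapped between neighbours in this order, except for chromosome 4 and YHet.

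**Figure D1:**
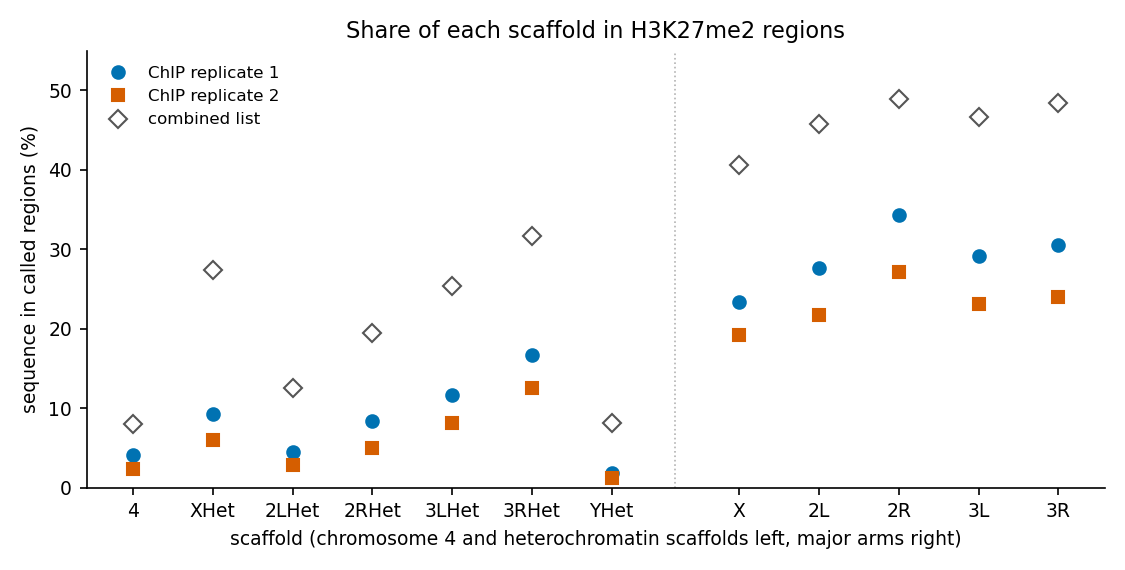
Percent of each scaffold lying in called H3K27me2 regions (vertical axis) for chromosome 4 and the 6 heterochromatin scaffolds, left of the dotted line, and the 5 major arms, right of it; circles are ChIP replicate 1, squares ChIP replicate 2 and diamonds the authors' combined list. In each list all 7 scaffolds on the left lie below every major arm, with 3RHet highest among them (16.7% in replicate 1, 12.6% in replicate 2, 31.7% in the combined list).

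In the combined list, whose pooling rule is not given, covered shares were larger on all scaffolds. Chromosome 4 had 8.07% and YHet 8.12%, the lowest values, followed by 2LHet at 12.6%, 2RHet at 19.5%, 3LHet at 25.4%, XHet at 27.4% and 3RHet at 31.7%. The arms had 46.2%. XHet changed place, lying above 3LHet in the combined list and below it in both replicates. The covered length of the combined list was 2.45 times the mean of the replicates on chromosome 4 and 2.53 times on the heterochromatin scaffolds, against 1.77 times on the arms. Among the scaffolds the ratio ran from 2.17 on 3RHet to 5.33 on YHet. Sequence covered in neither replicate made up 36.1% of the combined coverage on chromosome 4 and 42.4% on the heterochromatin scaffolds, against 26.3% on the arms.

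Coverage was uneven along the scaffolds. In full windows of 100 kb, the mean covered share of the replicates on chromosome 4 had a median of 2.29% over 13 windows and reached 13.9% ± 4.53 (SD, n = 2) in the window from 700001 to 800000. The window from 500001 to 600000 was next at 7.86% ± 2.34, and 2 windows, from 400001 to 500000 and from 1200001 to 1300000, had no region in either replicate. On the arms the median over 1189 windows was 25.0%, a level that none of the 13 windows of chromosome 4 reached. On the heterochromatin scaffolds 2 of 90 windows reached it, both on 3RHet.

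These were the first window of 3RHet, from 1 to 100000, with 33.9% in replicate 1 and 28.1% in replicate 2, and the window from 1100001 to 1200000, with 23.0% and 28.8%. The windows of 3RHet from 100001 to 300000 followed at 24.0% ± 5.94 and 24.1% ± 4.88 (SD, n = 2 each). The highest window on 3LHet, from 200001 to 300000, had 20.6% ± 7.97. Median window values were 16.0% on 3RHet, 10.4% on 3LHet and 5.57% on 2RHet. Across the 90 windows of the heterochromatin scaffolds Spearman's rho between the replicates was 0.840, and across the 13 windows of chromosome 4 it was 0.599, against 0.928 across the windows of the arms, all as descriptions. Neighbouring windows share a library and a scaffold and are not replicates.

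**Figure D2:**
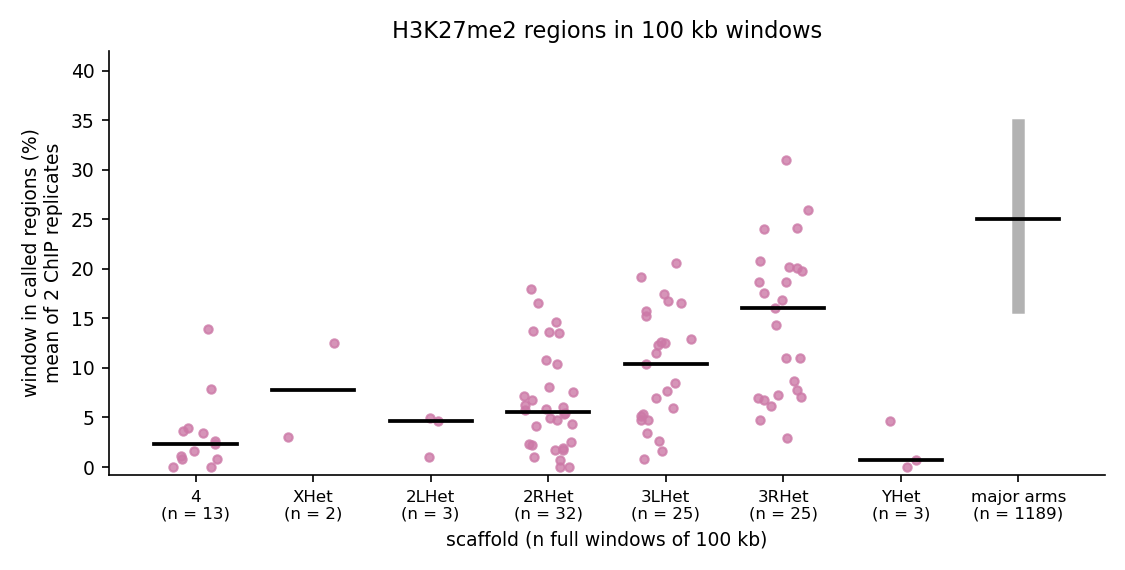
Percent of each full 100 kb window lying in called regions (vertical axis, mean of the 2 ChIP replicates) by scaffold; points are windows, black lines medians, and the grey bar at the right spans the quartiles of the 1189 windows of the major arms around their median of 25.0%. All 13 windows of chromosome 4 lie below that median, and 3RHet alone reaches above it, in 2 windows.

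Long uncalled stretches took up most of chromosome 4. Stretches of at least 50 kb without a region in any of the 3 lists numbered 10 and held 64.7% of its length, against 4.70% (3L) to 10.9% (X) of the length of the major arms. The longest ran from 26001 to 165256 (139256 bp), a length within the range of the arms, whose longest stretches were of 117929 bp (3L) to 188589 bp (3R). On 2RHet 11 such stretches held 29.8% of the scaffold, the longest from 188531 to 357817 (169287 bp). The shares were 19.7% on 2LHet, 16.0% on YHet, 11.4% on 3RHet and 7.67% on 3LHet. The longest there ran from 61577 to 134329 (72753 bp) on 2LHet, from 34757 to 90337 (55581 bp) on YHet, from 436014 to 520887 (84874 bp) on 3RHet and from 2323955 to 2401341 (77387 bp) on 3LHet. XHet had none of that length, and its longest uncalled stretch ran from 55981 to 87728 (31748 bp).

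Few regions of chromosome 4 recurred in both replicates. Of its 47 combined regions, 8 overlapped both replicates by at least 1 bp, which is 17.0% (exact Clopper-Pearson 95% interval 7.65% to 30.8%), and 41.1% of the whole combined list did. The widest member of all lay here, from 774256 to 789900, spanning 15645 bp. It overlapped 3 regions of each replicate, which covered 74.6% of it in replicate 1 and 57.9% in replicate 2. Its score lay at percentile 79.4 of the combined list, meaning that 79.4% of regions scored lower. Directly before it, the region from 767932 to 773754 (5823 bp) had 70.9% of its length covered in replicate 1 and 24.6% in replicate 2. With a narrow region after them they formed a block from 767932 to 792222, regions less than 5 kb apart being joined, and that block held 65.0% coverage in replicate 1 and 44.2% in replicate 2.

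A second block, from 541468 to 551674, held 4 combined regions. Its first region, from 541468 to 544604, was covered to 78.8% in replicate 1 and 83.2% in replicate 2. The next, from 544662 to 547648, was covered to 88.1% in replicate 1 and 67.6% in replicate 2. The remaining 2 regions of that block overlapped replicate 1 only. Joining regions into blocks was chosen after the values were seen.

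The other 4 regions of chromosome 4 in both replicates stood alone or near its end. The region from 165296 to 168036 was covered to 96.6% in replicate 1 and 68.7% in replicate 2, and had the highest score percentile of the 8, at 87.1. The region from 304956 to 308608 was covered to 36.6% in replicate 1 and 85.7% in replicate 2, the only one of these 4 with more in replicate 2. The region from 926894 to 928970 had 84.4% and 67.4% covered in replicates 1 and 2. The region from 1320464 to 1322548 had 91.5% and 89.3%, although its score was low, at percentile 13.8 of the combined list. A further block from 1086920 to 1104466 held 6 combined regions, none of them in both replicates, with 33.1% of its span covered in replicate 1 and 9.79% in replicate 2.

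**Figure D3:**
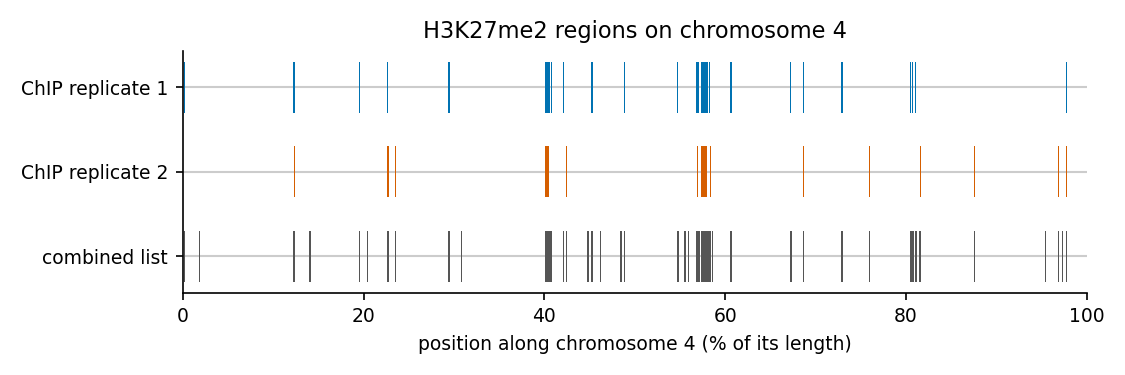
Called H3K27me2 regions along chromosome 4 (horizontal axis, percent of its 1351857 bp), drawn to scale for ChIP replicate 1 (26 regions), ChIP replicate 2 (16 regions) and the combined list (47 regions). Dense groups stand in the same 2 places in all 3 tracks, one of them the block that holds the 15645 bp region. A further group, from 1086920 to 1104466, has 6 regions in the combined list, 3 in replicate 1 and 1 in replicate 2. Stretches of at least 50 kb that are empty in all 3 tracks number 10.

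The second comparison asked how far the replicates called the same sequence. On chromosome 4, 9 of 26 regions of replicate 1 overlapped replicate 2 (34.6%, exact Clopper-Pearson 95% interval 17.2% to 55.7%), where 68.8% of all replicate 1 regions did. In the other direction, 9 of 16 regions of replicate 2 were shared (56.3%, 29.9% to 80.2%), where 82.8% of all replicate 2 regions were. The shared sequence was 18.7 kb, and the Jaccard index, shared length over length covered in either replicate, was 0.266, against 0.511 on the arms. Only 1 pair of replicates exists, so this index has no error. It can also fall where less sequence is covered, and it was not tested how much of the difference that accounts for. The widest region of replicate 1 on chromosome 4 without overlap in replicate 2 ran from 610749 to 613280 (2532 bp), and the widest of replicate 2 without overlap in replicate 1 from 1102451 to 1104168 (1718 bp). All 26 regions of replicate 1 and all 16 of replicate 2 on chromosome 4 overlapped the combined list. Nearly all regions of the whole lists did too, 12943 of 12968 in replicate 1 and 11424 of 11483 in replicate 2. On the heterochromatin scaffolds it was 473 of 477 and 359 of 365.

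On the heterochromatin scaffolds 238 of 477 regions of replicate 1 (49.9%) and 248 of 365 of replicate 2 (67.9%) were shared, and the Jaccard index was 0.334. The index was 0.411 on 3RHet, 0.314 on 3LHet, 0.265 on 2RHet, 0.231 on 2LHet, 0.187 on YHet and 0.141 on XHet. The scaffold with the most covered sequence had the highest index, but the order did not follow coverage throughout. XHet, with 9.24% and 6.00% covered in replicates 1 and 2, had a lower index than YHet, with 1.84% and 1.21%. Of the 300 combined regions on 3RHet, 100 overlapped both replicates (33.3%, exact Clopper-Pearson 95% interval 28.0% to 39.0%). On 3LHet it was 55 of 280 (19.6%, 15.2% to 24.8%) and on 2RHet 53 of 300 (17.7%, 13.5% to 22.5%). These intervals treat regions as independent, which neighbours are not. All 3 shares lay below the 41.1% of the whole list. Small numbers limit the rest, with 4 of 23 on XHet, 3 of 21 on 2LHet and 1 of 16 on YHet. Over the 6 scaffolds together shared regions were wider than unshared ones, as on the arms. The medians in replicate 1 were 2190.5 bp for shared and 1712 bp for unshared regions, against 2557 and 1712.5 bp on the arms. Those in replicate 2 were 1910.5 and 1522 bp, against 2120 and 1582 bp on the arms. On 2LHet, with 9 and 5 regions, the shared ones had the lower median width in both replicates.

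A single replicate supported other combined regions. Replicate 1 alone overlapped 15 of 47 on chromosome 4 (31.9%) and 209 of 940 on the heterochromatin scaffolds (22.2%), beside 18.7% of the whole list. Replicate 2 alone overlapped 6 of 47 on chromosome 4 (12.8%) and 95 of 940 on the heterochromatin scaffolds (10.1%), beside 9.07% of the whole list.

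Regions of the combined list that overlapped neither replicate were common, at 18 of 47 on chromosome 4 (38.3%) and 420 of 940 on the heterochromatin scaffolds (44.7%), and they were 31.1% of the whole list. On YHet they were 13 of 16. Many were narrower than 1301 bp, the narrowest region of either replicate list, and could not have appeared as such there. These were 8 of the 18 on chromosome 4 and 202 of the 420 (48.1%) on the heterochromatin scaffolds, against 1861 of 4512 (41.2%) on the arms. Their scores differed by place. On the heterochromatin scaffolds their median score percentile was 53.9, and on chromosome 4 it was 17.8, against 25.3 on the arms. With the narrow ones left out the medians were 48.4 on the heterochromatin scaffolds and 13.8 on chromosome 4, against 20.0 on the arms. The regions overlapping replicate 1 only had a median percentile of 51.5 on the heterochromatin scaffolds, against 35.2 on the arms. With narrow regions left out, it was 52.0 on the heterochromatin scaffolds, against 35.5 on the arms. The combined list is a single list, so these are descriptions with no test.

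**Figure D4:**
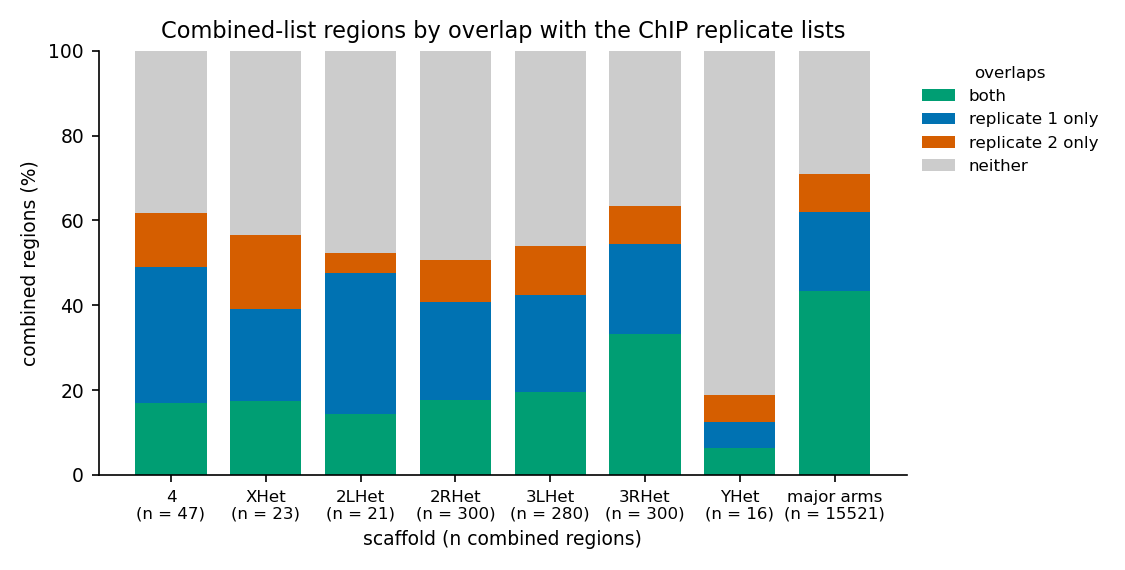
Percent of combined-list regions (vertical axis) that overlap both ChIP replicate lists, 1 of them or neither by at least 1 bp, for each scaffold and for the major arms, with the number of regions under each bar. The share in both replicates is 17.0% on chromosome 4 and 33.3% on 3RHet, against 43.4% on the arms, and on YHet 13 of 16 regions overlap neither.

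The third comparison set scores against those of other regions, by rank within each list because the headers do not name the scale of the score. Chromosome 4 regions ranked low. Their median score percentile was 25.6 in replicate 1 and 25.6 in replicate 2, against 49.7 and 49.6 on the arms. In the combined list it was 24.0, against 48.2 on the arms. In replicate 1, 19 of 26 regions scored below the median of the list, in replicate 2 14 of 16 and in the combined list 33 of 47, where 50.0% of each whole list do. None of the chromosome 4 regions was among the top 10% of scores in either replicate, which 10.0% of each list are. In the combined list 3 of the 47 (6.38%) were. The difference of the median percentile from the arms was -24.1 ± 0.0775 percentile points over the replicates (SD, n = 2; exact sign-flip permutation p = 0.5, the smallest possible). The near-equality of the 2 samples covers medians of 26 and 16 regions and is not a measure of their precision.

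Chromosome 4 regions were narrow, with medians of 1738 bp in replicate 1 and 1677 bp in replicate 2, against 2138 and 2015 bp on the arms. Wider regions ranked higher on the arms from 1301 bp upwards. In the combined list, arm regions under 1301 bp ranked above those of 1301 to 2000 bp, with medians of 33.1 and 18.5. Ranks were therefore also set side by side within width classes, and those of chromosome 4 were lower in each class of the replicate lists. In the combined list they were also lower from 1301 bp upwards, but the 8 chromosome 4 regions under 1301 bp had a median percentile of 37.5, against 33.1 on the arms. Among regions of 1301 to 2000 bp the median percentile was 11.6 in replicate 1 (15 regions) and 20.6 in replicate 2 (11 regions), against 22.0 and 26.2 on the arms. Among those of 2001 to 3000 bp it was 54.3 (8 regions) and 31.5 (3 regions), against 60.4 and 64.2 on the arms. Among those of 3001 bp or more it was 42.4 (3 regions) and 54.0 (2 regions), against 76.4 and 76.8 on the arms. The highest replicate scores on chromosome 4 were at percentile 89.2 in replicate 1, in the region from 781209 to 785489, and 62.6 in replicate 2, in the region from 305451 to 308580. In the combined list the highest-scoring region of chromosome 4 was one of 1001 bp, from 813174 to 814174, at percentile 99.8, with 0 bp in regions of either replicate.

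Ranks on the heterochromatin scaffolds differed from scaffold to scaffold. As a whole they had median percentiles of 49.0 in replicate 1 and 53.3 in replicate 2, which differed from the major arms, X included, by 1.49 ± 3.11 points, less than the replicate spread (SD, n = 2; exact sign-flip permutation p = 1). The autosomal arms alone stood at 45.6 and 44.9, below the heterochromatin scaffolds in both replicates. In the combined list the median of the heterochromatin scaffolds was 59.5, against 48.2 on the major arms, a difference of 11.2 points. The autosomal arms had 44.0 there. Within the class of 1301 to 2000 bp their medians were 29.0 in replicate 1 and 37.3 in replicate 2, against 22.0 and 26.2 on the arms. Within that of 2001 to 3000 bp they were 62.9 and 72.8, against 60.4 and 64.2 on the arms. From 3001 bp upwards they were 76.0 and 80.5, against 76.4 and 76.8 on the arms, so that replicate 1 was slightly lower there. 2RHet was lower than the major arms together in the replicates, at 39.1 and 47.4, and 3LHet stood at 44.0 and 49.5. Against the autosomal arms alone, both were lower in replicate 1 but higher in replicate 2. In the combined list 2RHet was 4.47 and 3LHet 4.39 points above the major arms together. 3RHet was higher at 61.8 and 57.5, and 2LHet reached 69.0 and 79.1 with 9 and 5 regions. XHet had medians of 79.8 and 70.4 with 10 and 8 regions. The X arm itself stood at 68.0 in replicate 1 and 73.9 in replicate 2, so XHet was above it only in replicate 1. For each of the 6 scaffolds taken alone the difference from the major arms together, X included, had the same sign in both replicates (exact sign-flip permutation p = 0.5). That of 3LHet in replicate 2 was only -0.087 points. In the top 10% of scores were 31 of 186 regions of 3RHet in replicate 1 (16.7%) and 31 of 151 in replicate 2 (20.5%), beside 10.0% of each list.

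YHet, the Y-linked scaffold, had the highest ranks on the least sequence. Replicate 1 had 3 regions there, at score percentiles 99.6, 99.6 and 62.2, and replicate 2 had 2 regions, at 99.8 and 99.8. In the combined list 13 of 16 YHet regions were in the top 10% and their median percentile was 96.5. The 1 YHet region in both replicates ran from 24396 to 30808 (6413 bp), with 78.8% of its length covered in replicate 1 and 41.8% in replicate 2. The sex of the embryos and the copy number of this scaffold are not given in the labels, and no input list was analysed here, so their part in these ranks was not tested.

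**Figure D5:**
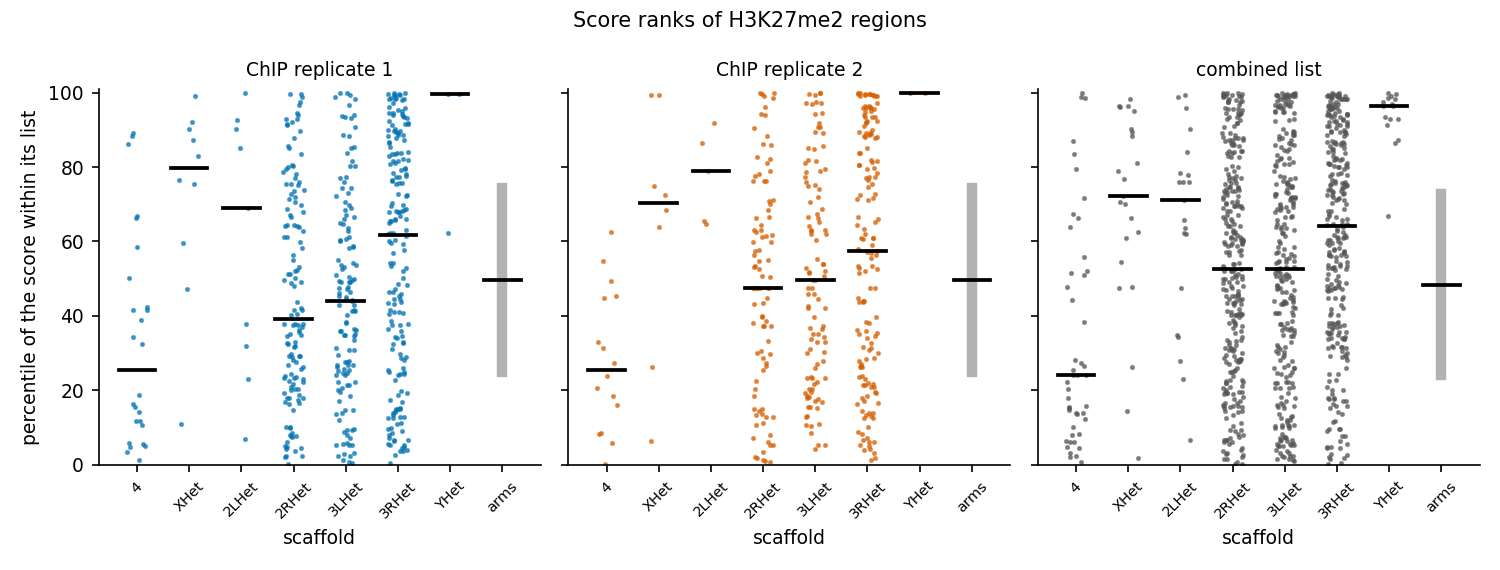
Percentile of each region's score within its own list (vertical axis) for ChIP replicate 1, ChIP replicate 2 and the combined list; points are regions of the named scaffold, black lines medians, and the grey bar the quartiles of the major arms. Chromosome 4 medians lie near percentile 25 in all 3 panels (25.6, 25.6 and 24.0), and YHet medians lie above 96 (99.6, 99.8 and 96.5).

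The widest combined regions of the larger scaffolds were long and partly covered in each replicate. On 3LHet the widest ran from 189250 to 200804 (11555 bp), with 76.9% covered in replicate 1 and 51.1% in replicate 2. The best replicate region within it ranked at percentile 99.4 in replicate 1 and 99.5 in replicate 2. The next on 3LHet, from 1890714 to 1901676 (10963 bp), had 74.2% and 79.3% covered. On 3RHet the widest lay at the very start of the scaffold, from 238 to 11470 (11233 bp), with 70.1% covered in replicate 1 and 73.6% in replicate 2. Together with its neighbours it formed a block of 9 regions up to 52666, covered to 61.3% in replicate 1 and 51.0% in replicate 2. The next on 3RHet, from 1101666 to 1112830 (11165 bp), had 84.2% and 73.4% covered and held regions at percentiles 98.6 and 99.6 of replicates 1 and 2.

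The longest block of all members, chosen after the values were seen, was also on 3RHet, with 15 combined regions from 245318 to 303686 (58369 bp), 44.8% covered in replicate 1 and 30.5% in replicate 2. On 2RHet the widest region ran from 698148 to 708352 (10205 bp), with 80.5% covered in replicate 1 and 55.5% in replicate 2. The next on 2RHet, from 572054 to 579322 (7269 bp), had 60.0% and 38.5% covered. These wide regions of chromosome 3 and chromosome 2 heterochromatin each overlapped between 1 and 4 separate regions of a replicate.

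On the small scaffolds 2LHet and XHet the widest combined regions were narrower than those above. This did not hold for the median width of all their combined regions, 1973 bp on 2LHet and 2233 bp on XHet. The medians were 1790 bp on 2RHet, 1817 bp on 3LHet and 2012 bp on 3RHet. On 2LHet the widest, from 256406 to 261554 (5149 bp), was covered to 35.9% in replicate 1 and 75.8% in replicate 2. The next in both replicates, from 312542 to 316496 (3955 bp), was covered to 40.1% and 45.5%. On XHet the widest, from 136718 to 141152 (4435 bp), was covered to 66.4% in replicate 1 and had 0 bp in replicate 2. Its next in both replicates, from 155364 to 159376 (4013 bp), was covered to 35.1% and 32.8%. The highest-scoring region of XHet, from 99664 to 101838, was in both replicates, covered to 93.2% in replicate 1 and 59.9% in replicate 2, and ranked at percentiles 99.1 and 99.4 there.

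XHet was the only heterochromatin scaffold whose top-scoring combined region was also called in a replicate. The top regions of the others were 1001 to 1063 bp wide with 0 bp in either replicate. They lay on 2LHet from 5826 to 6888, on 2RHet from 1840384 to 1841384, on 3LHet from 1920654 to 1921654, on 3RHet from 856624 to 857684 and on YHet from 207196 to 208198, at score percentiles between 99.4 and 99.99 of the combined list. Narrow regions under 1301 bp were 23.1% of the combined regions on the heterochromatin scaffolds and 17.0% on chromosome 4, and 14.6% of the whole list. At the other end, 67 of 940 regions on the heterochromatin scaffolds (7.13%) and 2 of 47 on chromosome 4 (4.26%) were at least 5 kb wide, and 17.3% of the whole list were.

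The widest regions without support in the other replicate both lay on 3LHet among the heterochromatin scaffolds. In replicate 1 it ran from 1175699 to 1179717 (4019 bp) and its score lay at percentile 70.7. In replicate 2 it ran from 870438 to 873726 (3289 bp), at percentile 62.9. Where regions of the replicates did overlap, their score ranks varied. Over 10 overlapping pairs on chromosome 4 Spearman's rho was 0.125, and over 265 pairs on the heterochromatin scaffolds it was 0.553, from 0.318 over 74 pairs on 3LHet to 0.632 over 120 pairs on 3RHet among the 3 scaffolds with at least 6 pairs. These values are descriptions across regions, some of which enter more than once. The region of chromosome 4 from 541567 to 544039 in replicate 1, for example, was at percentile 66.4 there, and its partner in replicate 2, from 541994 to 544649, was at 8.22.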

How the data were processed

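The authors deposited 3 lists of significantly enriched regions, 1 per ChIP sample and 1 for the replicate set (the combined list). Each region has a deposited score whose scale the headers do not name. Coordinates are FlyBase release 5, per the file headers. The submitters' processing notes name Bowtie 0.12.7. The sources used here do not give the caller, threshold or pooling. Per the labels, chromatin was crosslinked with 1.8% formaldehyde and incubated with antibody for 15 h.

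Samples were grouped by title. Covered length was the union of regions divided by the header's scaffold length; overlap required 1 bp; score percentiles were ranks within a list, ties averaged. Depth is unknown. Shares carry exact Clopper-Pearson intervals (95%), covering counting error only. Differences were tested by a two-sided exact sign-flip permutation over 2 samples, which cannot go below p = 0.5. Interval code was tested on simulated data. Named regions were the widest and highest-scoring of each scaffold, the next widest in both replicates, all chromosome 4 regions in both replicates, the widest unshared replicate regions and the longest uncalled stretches. Members and rules were chosen with earlier results of these data known. Alternatives were a median-score threshold, merging of regions under 1 kb apart, equal numbers of top-scoring regions, 50% coverage, a width minimum of 1301 bp, percentiles without U, and leaving out each replicate. Software was matplotlib 3.10.9, scipy 1.17.1, pandas 2.3.3 and numpy 2.4.6 under Python 3.11.15.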

Additional observations from a re-analysis of the deposited data

How the results depend on the processing

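The covered-share differences from the arms stayed negative in all alternatives, with an exact sign-flip permutation p = 0.5 in those that keep both replicates. Leaving out each replicate gave -24.9 to -20.6 points for chromosome 4 and -17.8 to -15.3 for the heterochromatin scaffolds, with covered shares of 2.40% to 4.18% and 7.73% to 11.2%. A score threshold at each list's median left 0.843% of chromosome 4 and 5.42% of the heterochromatin scaffolds covered, by construction fewer. On chromosome 4 this kept 7 regions of replicate 1 and 2 of replicate 2, none overlapping, so the Jaccard index was 0 and 0% of combined regions were in both replicates. On the heterochromatin scaffolds the index was 0.285 and the share 18.2%. Merging gave an index of 0.288 on chromosome 4 and 0.346 on the heterochromatin scaffolds, and equal numbers of regions 0.285 on chromosome 4. At 50% coverage in each replicate 15.4% of heterochromatin regions were in both, and with regions of at least 1301 bp 29.9%. The median score percentile of chromosome 4 was 25.7 without U, 24.0 in the combined list and 25.6 with either replicate left out. That of the heterochromatin scaffolds was 59.5 in the combined list and 49.0 to 53.3 with a replicate left out. With the width minimum in the combined list, added after seeing the data, they were 19.5 and 55.9. The cause of the moves of the index, of the shares and of the percentiles was not tested. No paired analysis was possible because no input list was analysed here, and per the labels the input with a given number belongs to the other ChIP sample. The unknown depth limits what can be said of uncalled sequence.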

Other observations

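On XHet, 7 consecutive regions of the combined list, from 87890 to 125744, were evenly spaced, with distances between neighbouring centres of 5625 to 6346 bp (median 5940.5 bp). Their widths were 1889 to 2541 bp and their score percentiles 81.0 to 98.4. Of the 7, 2 overlapped a region of replicate 1, 2 overlapped a region of replicate 2 and 4 overlapped neither. Runs of at least 6 regions whose spacings all lay within 10% of their median numbered 9 in the whole combined list, and the other 8, of 6 regions each, lay on major arms. The pattern was noticed in the data and the search was set afterwards, so it is given as a description, and the sequence of the scaffold was not examined.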
